A study of Homo sapiens with 6 samples.

Results

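The genes described here are the protein-coding neighbours of GPT in band q24.3 at the end of the long arm of human chromosome 8. A gene was a member if its annotated start lay between 143500000 and 145138636 on chromosome 8 of GRCh38 in GENCODE 29. GPT itself and the housekeeping genes CYC1 and RPL8 were left out. The rule used position and no measured value. It gave 61 genes of the 60664 in the count table, 47 on the centromeric and 14 on the telomeric side of GPT.

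mRNA was sequenced from cultured HCT8 cells, a human colorectal cancer line. The first group, here the GPT1 libraries, comprised 3 libraries of cells that received a GPT1 overexpression plasmid (label genotype GPT1 overexpression). The second comprised 3 libraries of cells that received a control plasmid (label genotype WT). All cells grew in DMEM with 10% fetal bovine serum in 5% CO2. The stated aim of the series was to identify signalling regulated by GPT1. The sources used here do not give the promoter of the plasmid, the time after transfection, or whether the cells were pools or clones.

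GPT encodes the cytosolic alanine aminotransferase. Its chromosomal neighbourhood is gene-dense and rich in G and C. Many of its genes overlap or start back to back, and the encoded proteins are mostly unrelated in function. They include a DNA helicase, splicing and ribosome factors, cytoskeletal linkers, transporters, the heat shock factor HSF1 and a row of zinc finger genes towards the telomere. The comparison asks whether neighbours differed between the groups with their distance from GPT.

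Total counts were 30370654 to 31513656 in the GPT1 libraries and 21255655 to 32487217 in the control libraries, control replicate 3 being the shallowest. GPT had 105529, 96886 and 106063 counts in the GPT1 libraries, against 9, 14 and 3 in the control libraries. Counts per gene cannot tell transcripts of the plasmid from those of the chromosomal GPT gene. Whether the chromosomal gene itself changed was therefore not measured. Colorectal epithelial markers were detected, except that KRT20 averaged 0.022 CPM (counts scaled to the library total) in the GPT1 libraries and 0.077 CPM in the control libraries. LGALS4 and CDH17 were low in the GPT1 libraries (0.81 and 0.94 CPM). Of the 9 epithelial markers 8 were tested and 7 were called lower in the GPT1 libraries, against 14.6% of all tested genes. CDX2 was not called (45.3 CPM in the GPT1 libraries, 41.7 CPM in the control libraries). The summed level of the 9 was 552 to 620.2 CPM in the GPT1 libraries and 836 to 988 CPM in the control libraries. KRT8 and KRT18 had the highest levels, with means of 351 and 171 CPM in the GPT1 libraries. Of 5 neural and kidney-line markers, all were detected, with a sum of 253 to 260.4 CPM in the GPT1 libraries and 464 to 553 CPM in the control libraries. Of these, 3 were called lower. PAX2 and INA were not called, and INA averaged 61.1 CPM in the GPT1 libraries and 51.8 CPM in the control libraries. Of 5 fibroblast markers 3 were called higher, against 10.5% of all tested genes. COL1A1 averaged 15.5 CPM in the GPT1 libraries and 18.5 CPM in the control libraries and was not called. The sums over the fibroblast markers were 62.0 to 64.5 CPM in the GPT1 libraries and 48.6 to 51.0 CPM in the control libraries, with COL1A2 near 0. Those over 4 leukocyte markers were 2.89 to 3.31 CPM in the GPT1 libraries and 3.30 to 4.34 CPM in the control libraries, with CD3E at 0, and those over 4 endothelial markers stayed below 1 CPM in every library. The part of these differences in the results on the neighbours was not tested. In bulk RNA, fewer cells of a type and less RNA per cell cannot be told apart.

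Of the 61 neighbours, 55 passed the filter on low counts and were tested. CCDC166, SPATC1, SCRT1, TMEM249, FOXH1 and the unnamed ENSG00000271698 did not pass, with at most 10 counts in a library. Among the tested genes, levels per kb of exon in the control libraries ran from 0.067 CPM per kb for WDR97 to 91.9 CPM per kb for GRINA, which encodes a membrane protein of the Golgi and endoplasmic reticulum. GRINA was followed by MAF1 (90.5 CPM per kb), a repressor of RNA polymerase III, and, at a lower level, by BOP1 (56.2) and GPAA1 (54.9). The median over the tested neighbours was 8.79 CPM per kb in the GPT1 libraries and 8.63 CPM per kb in the control libraries.

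The share of neighbours past the threshold was close to that of all genes in the uncorrected test, and most differences were small. Of the 55 tested neighbours 8 rose and 6 fell in the GPT1 libraries (edgeR quasi-likelihood test, adjusted p under 0.05 over all 17638 tested genes). These were 25.5% of the tested neighbours, against 25.1% of all tested genes, of which 10.5% were called higher and 14.6% lower. The median log2 fold change of the 55 neighbours was 0.12, against -0.021 over all tested genes and -0.17 over 415 other protein-coding genes tested on chromosome 8, of which 30 were higher and 102 lower. The CPM of the groups did not overlap for 23 of the 55 neighbours, 14 of them higher and 9 lower, against 43.4% of all tested genes, of which 21.1% were higher and 22.2% lower. Among called genes the median absolute log2 fold change was 0.55 in the neighbours and 0.60 overall. Of the 41 neighbours not called, 40 had a 95% interval within a 2-fold change either way and 33 within 1.5-fold.

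These counts moved with the libraries used, and the same held for all genes. Without GPT1 replicate 3, 3 neighbours passed (5.45% of them, 7.98% of all genes). Without GPT1 replicate 1, 4 passed (7.27% and 8.80%). Without control replicate 1, 6 passed (10.9% and 14.2%). Deviations from the group mean fell with the GC content of transcripts in control replicate 3 and GPT1 replicate 2 (Spearman -0.61 and -0.53 across genes). They rose with it in control replicates 1 and 2 (0.43 and 0.46) and GPT1 replicate 1 (0.53), with GPT1 replicate 3 at 0.046. Deviations are centred within each group, so the values of a group depend on each other. Without control replicate 3 and GPT1 replicate 2, 22 neighbours passed (40.0%, against 31.5% of all genes). With every gene of at least 1 count kept, 18 of 60 passed (30.0%, against 17.1% of all genes). This setting tested 31515 genes in place of 17638, but only 60 neighbours in place of 55. The shares therefore rest on sets of genes that grew unequally. After correction of every library for transcript length and GC content, 20 were higher and 7 lower, 27 in all or 49.1%, beside 19.9% higher, 14.8% lower and 34.7% in all among all genes, and the 14 calls of the uncorrected test were among them. A neighbour that did not pass is not thereby shown to be unchanged.

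**Figure D1:**
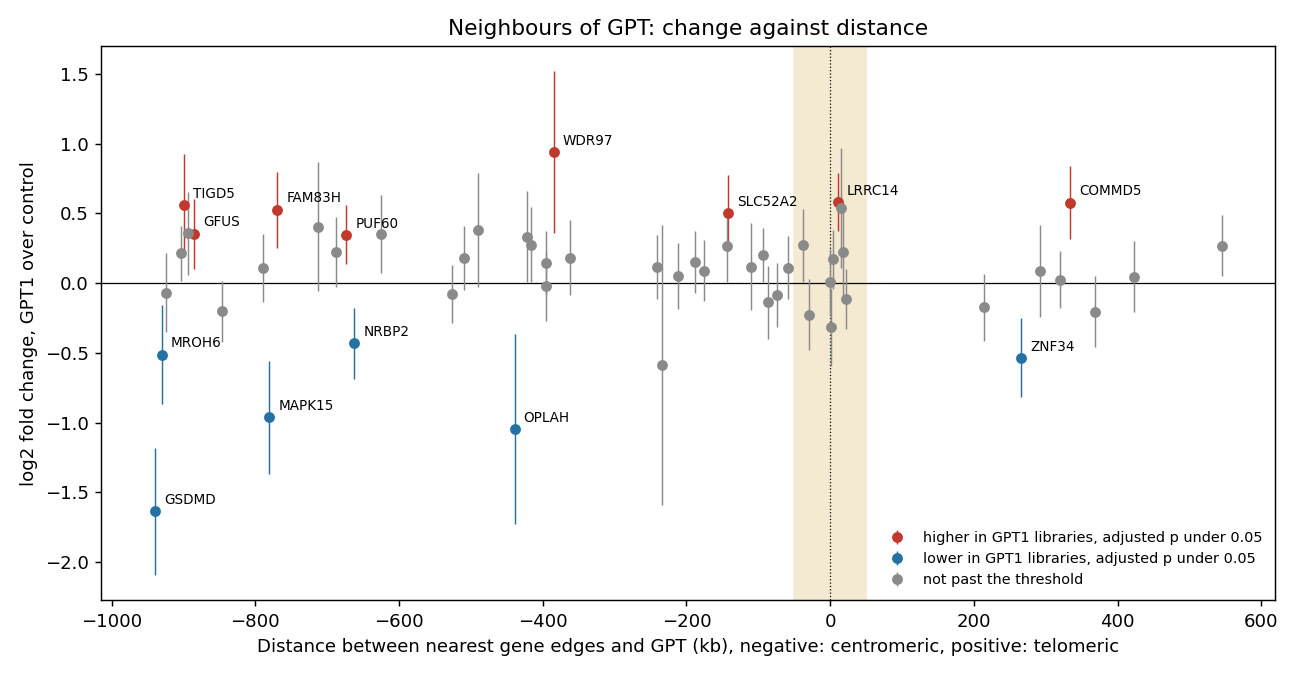
Log2 fold change, GPT1 over control, of the 55 tested neighbours against the distance in kb between each gene's nearest edge and GPT, with centromeric genes at negative and telomeric genes at positive distances. Bars are 95% intervals from the edgeR fit, the band covers 50 kb on each side, and the 14 named genes passed the threshold: 1 of them lies in the band and 12 lie beyond 250 kb.

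The direction of the differences showed almost no correlation with distance from GPT. Across the 55 neighbours the log2 fold change and the distance had a Spearman correlation of 0.024, with 0.065 over the 41 centromeric genes and -0.024 over the 14 telomeric ones. The absolute log2 fold change correlated with distance at 0.26, that is, genes further away differed somewhat more, at 0.41 on the centromeric and -0.30 on the telomeric side. These are descriptions across genes, which share libraries and reads and are not replicates. Restricted to the 47 neighbours with a mean of at least 5 CPM, the correlation with the absolute change was 0.12. The absolute change also correlated with the mean level (-0.38). Of the 8 neighbours below 5 CPM 5 were called, against 25.1% of all tested genes at any level. Of those 8 neighbours 7 lay over 250 kb away. The share called among all genes below 5 CPM was not counted. Over the 17 tested neighbours that overlap no annotated gene, it was 0.73 with distance and -0.069 with the mean level.

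By distance class, 1 of 9 tested genes within 50 kb was called (higher), 1 of 13 between 50 and 250 kb (higher), and 12 of 33 beyond 250 kb (6 higher, 6 lower). Called higher were thus 11.1%, 7.69% and 18.2% of these classes, against 10.5% of all tested genes. Called lower were 18.2% of the genes beyond 250 kb, against 14.6% of all tested genes. The differences between classes were not tested. The median log2 fold changes of these classes were 0.17, 0.11 and 0.18. Neighbouring genes were only weakly alike, since the log2 fold change of a gene and that of the next tested one along the chromosome correlated at 0.12 over 54 such steps. Genes on the plus strand, which GPT is on, had a median of 0.12 (4 of 24 higher, 2 lower). Those on the minus strand had a median of 0.14 (4 of 31 higher, 4 lower). These are 16.7% higher and 8.33% lower on the plus strand, and 12.9% each on the minus strand. Of all tested genes 10.5% were higher and 14.6% lower.

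Among the closest genes, LRRC14 was the one that rose, and the genes on both sides of GPT did not pass the threshold. PPP1R16A (144477969 to 144502121, plus strand), which encodes a regulatory subunit of protein phosphatase 1, ends 0.852 kb before GPT begins. It had 40.6, 39.3 and 35.3 CPM in the GPT1 libraries, against 39.8, 41.0 and 33.9 CPM in the control libraries. The groups overlapped throughout, with a log2 fold change of 0.0046 (95% interval -0.24 to 0.25, adjusted p = 0.980, edgeR). MFSD3 (144509074 to 144511213, plus strand), a membrane protein of the major facilitator family, starts 1.90 kb after GPT ends. It had 45.5, 35.3 and 40.4 CPM in the GPT1 libraries and 52.3, 55.3 and 43.3 CPM in the control libraries. Only GPT1 replicate 1 reached the range of the controls, and the log2 fold change of -0.32 (SE 0.13) did not pass (adjusted p = 0.0855, edgeR). It passed after the length and GC correction (-0.44, adjusted p = 0.000295), without control replicate 3 (-0.40), and without control replicate 3 and GPT1 replicate 2 (-0.30).

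RECQL4 (144511288 to 144517845, minus strand), the DNA helicase mutated in Rothmund-Thomson syndrome, had 135, 124 and 117 CPM in the GPT1 libraries, against 116, 119 and 99.3 CPM in the control libraries. The groups overlapped (log2 fold change 0.17 ± 0.096 SE, adjusted p = 0.206, edgeR). After the length and GC correction it was 0.19 and passed (adjusted p = 0.0242), but not with the replicate block added to the correction (adjusted p = 0.0676, edgeR). LRRC14 (144517992 to 144525178, plus strand), a leucine-rich repeat protein, starts 147 bases from the RECQL4 start site on the opposite strand. It had 119.5, 107 and 112 CPM in the GPT1 libraries and 77.4, 81.3 and 67.6 CPM in the control libraries. Every GPT1 library lay above every control library. It rose by 0.58 ± 0.095 on the log2 scale (SE; adjusted p = 0.00284, edgeR), and LRRC14 passed in all 18 alternative analyses, with log2 fold changes from 0.52 to 0.67.

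LRRC24 (144522377 to 144527032, minus strand), another leucine-rich repeat gene, overlaps the end of LRRC14. No source states whether counting used strand, so reads of the overlap cannot be told apart. LRRC24 had 10.4, 7.86 and 9.93 CPM in the GPT1 libraries and 6.41, 8.19 and 4.62 CPM in the control libraries, where control replicate 2 exceeded GPT1 replicate 2. The difference was 0.54 ± 0.20 on the log2 scale (SE; edgeR adjusted p = 0.0647). LRRC24 passed without control replicate 2 (0.75) or GPT1 replicate 2 (0.67), with DESeq2 (0.56), with every gene of at least 1 count kept (0.54), without control replicate 3 and GPT1 replicate 2 (0.50) and after the length and GC correction (0.43). The other genes within 50 kb did not pass in the uncorrected test. ZFTRAF1 (also CYHR1; a zinc finger protein of the TRAF type) averaged 84.2 ± 8.90 CPM in the GPT1 libraries and 69.8 ± 9.58 CPM in the control libraries (SD, n = 3 each). Its groups did not overlap, and it passed after the length and GC correction (0.39, adjusted p = 0.00221, edgeR). KIFC2, a kinesin motor, averaged 28.8 ± 3.66 CPM in the GPT1 libraries and 33.7 ± 1.45 CPM in the control libraries. C8orf82 averaged 46.9 ± 3.59 CPM in the GPT1 libraries and 40.1 ± 8.84 CPM in the control libraries. ARHGAP39 averaged 43.0 ± 1.64 CPM in the GPT1 libraries and 46.5 ± 3.66 CPM in the control libraries (log2 fold change -0.12, adjusted p = 0.400, edgeR). The groups of KIFC2, C8orf82 and ARHGAP39 overlapped. Over all 9 genes the 95% intervals of the log2 fold changes lay between -0.59 and 0.97.

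**Figure D2:**
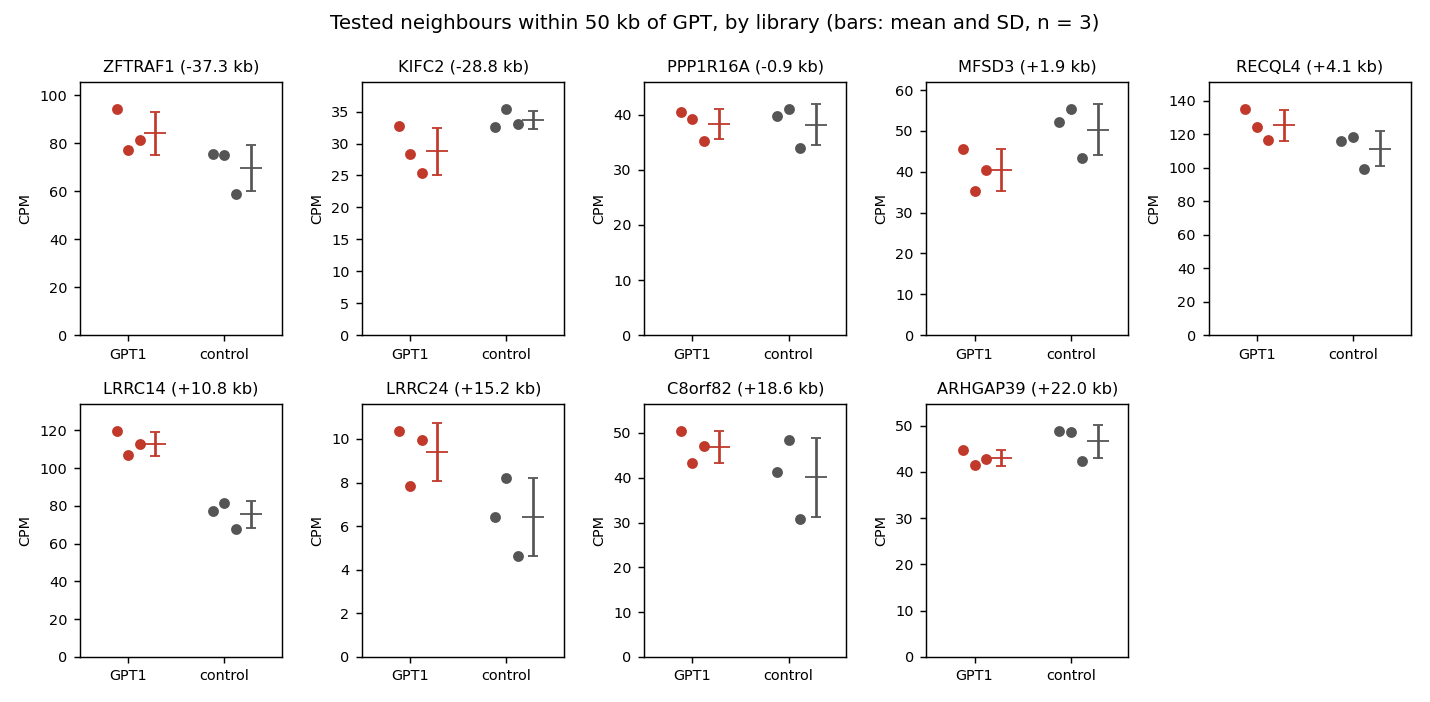
CPM of the 9 tested neighbours within 50 kb of GPT in each library, in chromosomal order, with the mean and SD of 3 libraries beside the points and the distance to GPT in each title (minus: centromeric). GPT1 libraries are left of control libraries in each panel, and LRRC14, with 107 to 119.5 CPM in the GPT1 libraries against 67.6 to 81.3 CPM in the control libraries, shows the widest gap between groups.

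Further from GPT, genes that rose did so by less than 2-fold. COMMD5 (144841042 to 144853736), a COMM domain protein of the endosomal sorting machinery that overlaps ZNF7, had 38.6, 35.3 and 41.9 CPM in the GPT1 libraries, against 26.5, 28.5 and 22.5 CPM in the control libraries. The groups did not overlap, with a difference of 0.58 ± 0.12 on the log2 scale (SE; adjusted p = 0.00895, edgeR). ZNF7, on the other strand, had 35.8 to 36.1 CPM in the GPT1 libraries and 35.1 to 35.6 CPM in the control libraries. FAM83H, an organiser of keratin filaments, had 83.7, 72.8 and 77.3 CPM in the GPT1 libraries and 57.8, 60.5 and 43.7 CPM in the control libraries. All GPT1 libraries were above the controls, control replicate 3 being the lowest (log2 fold change 0.53 ± 0.12 SE, adjusted p = 0.0146, edgeR). SLC52A2, a riboflavin transporter, had 84.6, 72.0 and 79.3 CPM in the GPT1 libraries and 57.0, 63.9 and 45.7 CPM in the control libraries. Its groups were likewise apart (log2 fold change 0.50 ± 0.12 SE, adjusted p = 0.0174, edgeR). SLC52A2 overlaps FBXL6, TMEM249 and ENSG00000271698, and the reads of overlaps cannot be told apart.

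Smaller or less stable rises occurred in TIGD5, PUF60, GFUS and WDR97. TIGD5, a gene derived from a tigger transposon, had 53.8, 45.2 and 48.7 CPM in the GPT1 libraries and 34.6, 41.3 and 24.2 CPM in the control libraries (log2 fold change 0.56 ± 0.17 SE, adjusted p = 0.0334, edgeR). PUF60, a splicing factor, had 265, 227 and 257 CPM in the GPT1 libraries and 198, 215 and 176 CPM in the control libraries (0.35 ± 0.097 SE, adjusted p = 0.0265). In both, control replicate 3 was the lowest library and control replicate 2 the control nearest to the GPT1 libraries. GFUS (also TSTA3), the last enzyme of GDP-fucose synthesis, averaged 50.6 ± 3.53 CPM in the GPT1 libraries and 39.6 ± 4.98 CPM in the control libraries (SD, n = 3 each; log2 fold change 0.35 ± 0.11 SE, edgeR adjusted p = 0.0428). WDR97, a little studied WD repeat gene, was barely detected, with 1.08 to 1.21 CPM in the GPT1 libraries and 0.508 to 0.693 CPM in the control libraries (0.94 ± 0.26 SE, adjusted p = 0.0267). TIGD5 overlaps EEF1D, which averaged 370.1 CPM in the GPT1 libraries and 319 CPM in the control libraries. WDR97 overlaps SHARPIN, which averaged 76.7 CPM in the GPT1 libraries and 69.5 CPM in the control libraries. The reads of these overlaps, and of that between COMMD5 and ZNF7, cannot be told apart. Control replicate 3 was the lowest control in 7 of the 8 genes that rose, and in 43 of all 55 tested neighbours.

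Of these rises, LRRC14 passed with each library left out in turn. COMMD5 did not pass without GPT1 replicate 3 (adjusted p = 0.0564, edgeR). FAM83H and SLC52A2 each failed when GPT1 replicate 1 or 3 was left out, with edgeR adjusted p-values of at most 0.0644 and 0.0754. The calls of TIGD5 and PUF60 ended when control replicate 1 or either of GPT1 replicates 1 and 3 was left out (at most 0.119 and 0.110). GFUS failed without any of these or without control replicate 3 (up to 0.160), and also under the replicate block (adjusted p = 0.0673). WDR97 failed with DESeq2 and without any library other than control replicate 3 (up to 0.0859).

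The genes that fell included those with the largest changes in the neighbourhood. GSDMD (143553207 to 143563062), which encodes the pore-forming gasdermin D of pyroptotic cell death, had 1.54, 1.11 and 0.980 CPM in the GPT1 libraries, against 3.88, 4.12 and 3.28 CPM in the control libraries. The groups lay far apart, although the counts were low (30 to 48 reads in the GPT1 libraries and 71 to 130 in the control libraries). The difference was -1.64 ± 0.21 on the log2 scale (SE; edgeR adjusted p = 0.000697). MAPK15, an atypical MAP kinase, had 3.09, 2.75 and 2.09 CPM in the GPT1 libraries and 4.95, 4.60 and 6.01 CPM in the control libraries. Its groups did not overlap (log2 fold change -0.96 ± 0.18 SE, adjusted p = 0.00615, edgeR). GSDMD and MAPK15 passed in all 17 alternative analyses that kept them above the filter, GSDMD between -1.85 and -1.50 and MAPK15 between -1.09 and -0.82 in log2 fold change.

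OPLAH, the 5-oxoprolinase of the gamma-glutamyl cycle, was at 0.359 to 0.622 CPM in the GPT1 libraries and 0.786 to 1.14 CPM in the control libraries (log2 fold change -1.05 ± 0.31 SE, adjusted p = 0.0329, edgeR). ZNF34, a zinc finger protein, had 6.18, 5.99 and 6.27 CPM in the GPT1 libraries and 9.80, 8.44 and 8.46 CPM in the control libraries. The GPT1 libraries agreed closely and lay below all controls (-0.54 ± 0.13 SE, adjusted p = 0.0156). NRBP2, a pseudokinase, had 17.8, 17.6 and 15.5 CPM in the GPT1 libraries and 23.3, 21.2 and 24.1 CPM in the control libraries (-0.43 ± 0.12 SE, adjusted p = 0.0232). MROH6, of the armadillo-like repeat family, was at 2.75 to 3.54 CPM in the GPT1 libraries and 3.93 to 4.76 CPM in the control libraries (-0.51 ± 0.16 SE, adjusted p = 0.0399). The calls of ZNF34 and NRBP2 ended when control replicate 1 or either of GPT1 replicates 1 and 3 was left out (edgeR adjusted p at most 0.0649 and 0.116). OPLAH failed without any of these 3 or control replicate 2 (up to 0.125), and with DESeq2. MROH6 failed without any library other than control replicate 3 (up to 0.127), with DESeq2, with upper-quartile scaling and under the replicate block (adjusted p = 0.0583).

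**Figure D3:**
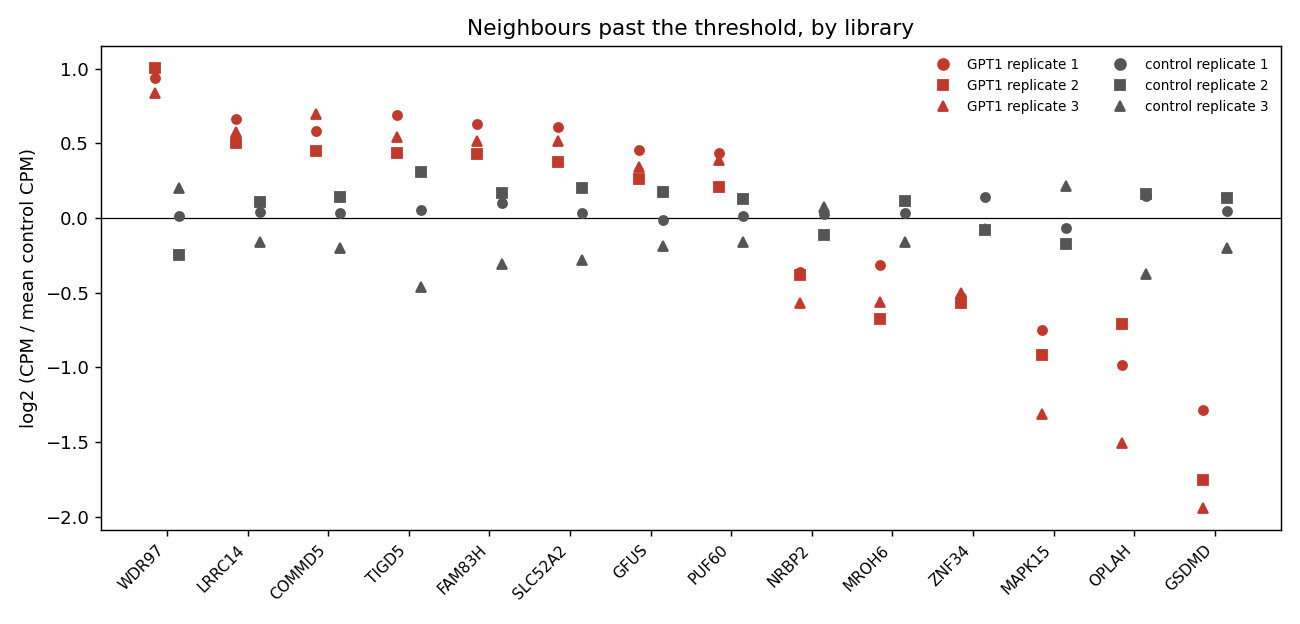
Log2 ratio of CPM to the mean control CPM in each library for the 14 neighbours past the threshold, from the highest to the lowest fold change. GPT1 libraries are in red and left, control libraries in grey and right, and marker shapes give the replicate. In all 14 genes the groups are apart, and the spread among the libraries of a group is widest in OPLAH, MAPK15, GSDMD and TIGD5.

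Grouped by the role of the protein, the groups held 3 to 9 tested genes. Their calls stand beside 10.5% called higher and 14.6% called lower among all tested genes. The differences between groups were not tested. Of 6 tested genes of RNA processing, ribosome assembly and translation, PUF60 rose (median log2 fold change 0.21, all 6 above 0). EEF1D, a guanine exchange subunit of elongation factor 1, averaged 370.1 ± 25.2 CPM in the GPT1 libraries and 319 ± 26.7 CPM in the control libraries (adjusted p = 0.101, edgeR). CPSF1, the large subunit of the polyadenylation specificity factor, averaged 199 ± 12.1 CPM in the GPT1 libraries and 173 ± 14.0 CPM in the control libraries (adjusted p = 0.117). Both passed after the length and GC correction (0.22 and 0.25). The 3 genes of DNA repair and replication did not pass (median 0.17). Besides RECQL4, TONSL, a factor of recombination at stalled forks, averaged 101 ± 9.51 CPM in the GPT1 libraries and 93.8 ± 9.70 CPM in the control libraries and passed after the correction (0.25). PARP10, a mono-ADP-ribosyltransferase, averaged 4.78 ± 0.689 CPM in the GPT1 libraries and 3.63 ± 0.762 CPM in the control libraries.

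Among 7 metabolic enzymes GFUS rose and OPLAH fell (median 0.12). PYCR3, which makes proline from pyrroline-5-carboxylate, averaged 47.7 ± 4.92 CPM in the GPT1 libraries and 37.2 ± 6.48 CPM in the control libraries but missed the threshold (0.36 on the log2 scale, adjusted p = 0.0746, edgeR). It passed after the length and GC correction (0.32, adjusted p = 0.00889). Of 6 tested genes of the cytoskeleton, cell polarity and junctions, FAM83H rose (median 0.072). The cytolinker EPPK1 had groups that did not overlap, 15.8 ± 1.61 CPM in the GPT1 libraries against 12.4 ± 0.939 CPM in the control libraries (adjusted p = 0.0645, edgeR), and passed after the correction (0.59). The polarity scaffold SCRIB averaged 261 ± 24.7 CPM in the GPT1 libraries and 224 ± 31.8 CPM in the control libraries and also passed after the correction (0.31). Of 4 membrane transporters SLC52A2 rose (median 0.020), and GRINA averaged 263 ± 24.8 CPM in the GPT1 libraries and 232 ± 26.5 CPM in the control libraries.

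TIGD5 was the gene called among 4 tested transcription regulators outside the zinc finger group (median 0.065). HSF1, the master regulator of the heat shock response, had 169, 143 and 161 CPM in the GPT1 libraries and 146, 155 and 126 CPM in the control libraries. The groups overlapped, with a log2 fold change of 0.15 (95% interval -0.07 to 0.37, adjusted p = 0.293, edgeR). SCX, a transcription factor of tendon, was near the detection limit (0.325 ± 0.127 CPM in the GPT1 libraries against 0.470 ± 0.223 CPM in the control libraries). Among 8 zinc finger genes ZNF34 fell and 7 did not pass (median -0.075). ZNF623 averaged 53.0 ± 5.76 CPM in the GPT1 libraries and 61.0 ± 1.38 CPM in the control libraries, and ZNF250 averaged 13.6 ± 0.595 CPM in the GPT1 libraries and 15.7 ± 0.974 CPM in the control libraries. Their groups did not overlap, but the log2 fold changes of -0.20 each became 0.039 and -0.0075 after the length and GC correction. In the group of ubiquitin, sorting, kinase and death signalling genes, COMMD5 rose and GSDMD, MAPK15 and NRBP2 fell out of 9 tested (median 0.0046). Thus 11.1% were higher and 33.3% lower, against 10.5% and 14.6% of all tested genes. In the group of leucine-rich, armadillo-repeat and little studied genes, LRRC14 and WDR97 rose and MROH6 fell out of 8 tested (median 0.34). Of the tested neighbours not named so far, IQANK1 was at a log2 fold change of 0.41. The rest lay between -0.17 (ZNF251, a zinc finger gene) and 0.33 (EXOSC4, a subunit of the RNA exosome). These genes did not pass in the uncorrected test, and some of them passed after the length and GC correction.

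**Figure D4:**
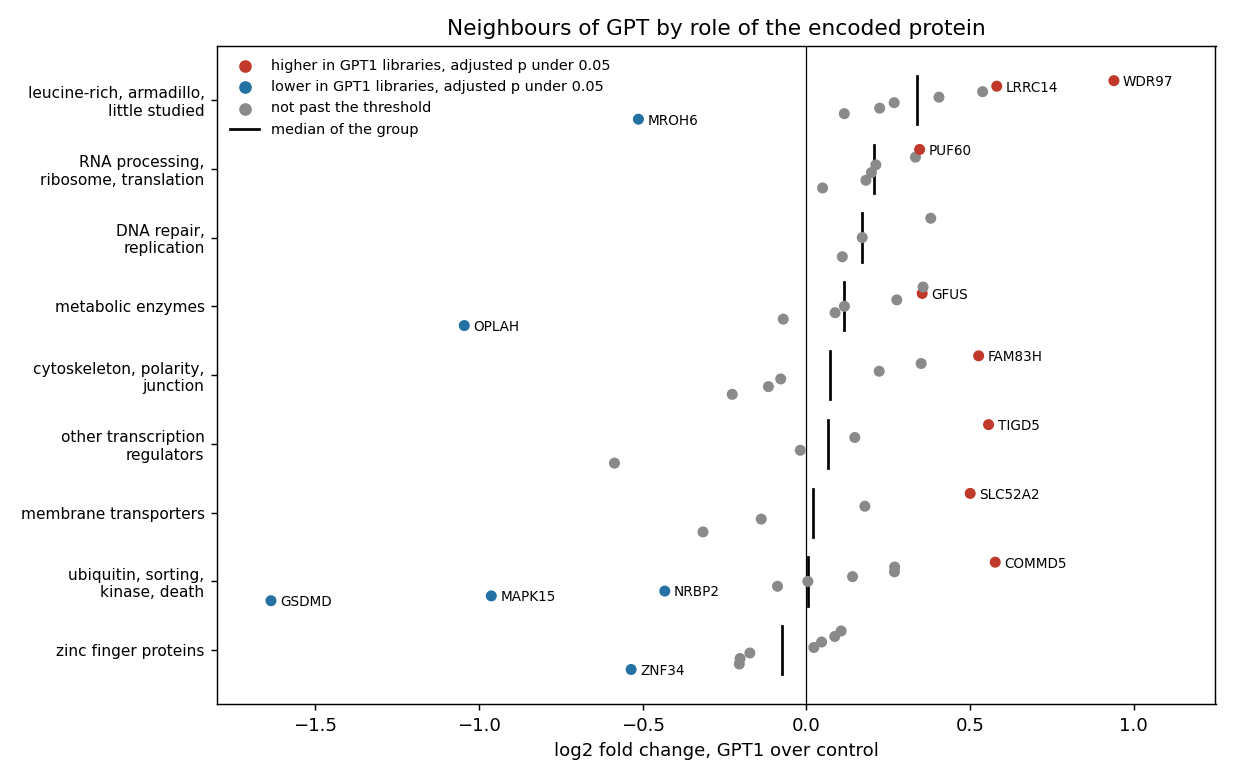
Log2 fold change, GPT1 over control, of the 55 tested neighbours by role of the encoded protein. Each point is a gene, the black bar is the group's median, and colours mark genes past the threshold: 8 rose and 6 fell, and the zinc finger group has the lowest median (-0.075).

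Among the tested neighbours, 5 pairs have start sites within 1000 bases of each other on opposite strands. In 4 of these the log2 fold changes of both genes had the same sign, where 37 of all 55 tested neighbours were above 0. In these pairs the values were 0.58 for LRRC14 and 0.17 for RECQL4 (147 bases apart), and 0.15 for HSF1 and 0.050 for BOP1 (221 bases). They were 0.53 for FAM83H and 0.41 for IQANK1 (339 bases), and 0.94 for WDR97 and 0.14 for SHARPIN (398 bases). In the fifth pair KIFC2 was at -0.23 and ZFTRAF1 at 0.27 (366 bases). LRRC14, FAM83H and WDR97 were called in these pairs, each without its partner in the uncorrected test. After the length and GC correction LRRC14 and RECQL4 were both called higher.

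The neighbourhood stood apart from other genes in base composition, which moved with the libraries. The median GC content of the tested neighbours' longest transcripts was 64.2%, against 49.0% over all tested genes and 44.3% over the other tested protein-coding genes of chromosome 8. Across the 55 neighbours the log2 fold change correlated with GC content at -0.0080, against 0.31 across 17436 genes. Of 10 bins of all genes by GC content, the highest held 39 of the tested neighbours. Of these, 7 rose and 4 fell, with a median log2 fold change of 0.15. Over all genes of that bin 13.0% were called higher and 9.81% lower, with a median of 0.088. In bins 1 and 2, with the lowest GC content, the medians of all genes were -0.38 and -0.25. Those bins held 0 tested neighbours. In bins 6 to 10 the medians of all genes lay between 0.071 and 0.11. The correlations of -0.0080 and 0.31 thus cover unlike ranges of GC content. After the length and GC correction the median was 0.15 in the neighbours, 0.030 over all tested genes and -0.0022 over the rest of chromosome 8, and the correlation of the log2 fold change with distance from GPT was 0.0093.

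**Figure D5:**
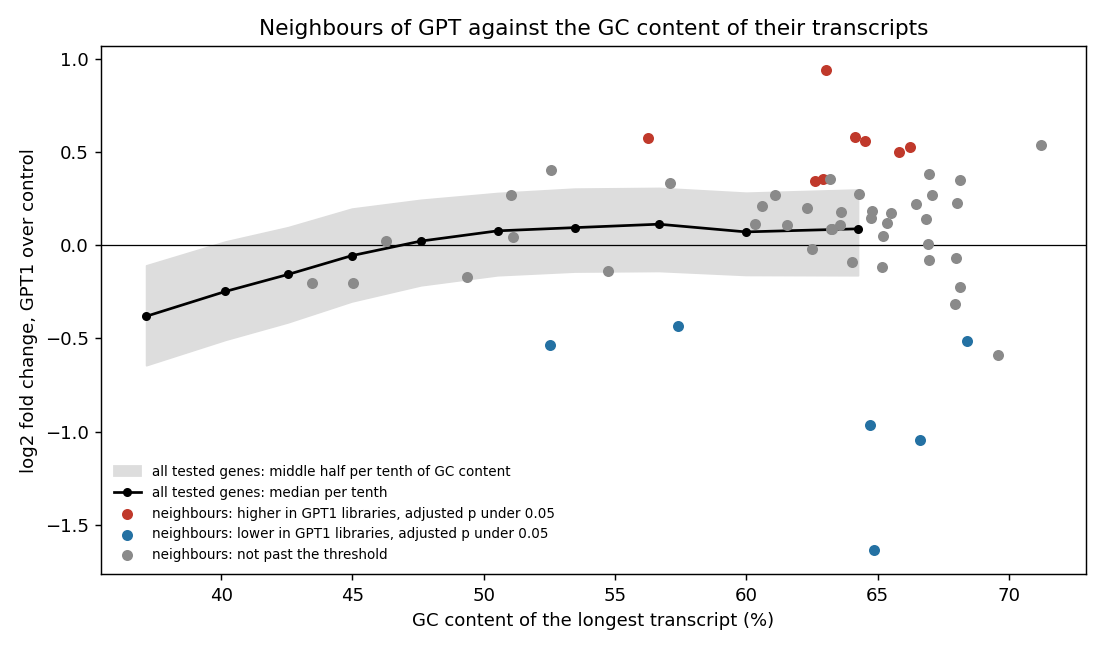
Log2 fold change, GPT1 over control, of the 55 tested neighbours (points, coloured by call) against the GC content of their longest transcript in percent. The line and the grey area give the median and the interquartile range of all tested genes in 10 bins of GC content, with medians of -0.38 in the lowest bin and 0.088 in the highest, where 39 of the neighbours lie.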

How the data were processed

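Total RNA was extracted with Trizol and made into Illumina mRNA libraries, per the labels' protocols. The authors deposited raw counts of reads per gene, 1 column per sample and whole numbers without normalization. Reads were aligned with HISAT2 2.0 to GRCh38, per the submitters' processing notes, while the sources used here name no counting tool, annotation or strand setting. Of 60664 identifiers, 58396 had coordinates in GENCODE 29 and the other 2268 were not placed. Symbols are current ones from a gene name table.

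The test was edgeR 4.0.16 in R 4.3.3 (filterByExpr, TMM scaling, glmQLFit and glmQLFTest, two-sided, no covariate, Benjamini-Hochberg adjustment over 17638 genes, threshold 0.05). CPM use TMM-scaled totals. Standard errors and 95% intervals were derived from each fold change and its F statistic. Distance is the gap between the nearest edges of a gene and GPT. Replicate pairs of a group differed by 9.98 to 30.8 chi-square per degree of freedom, so all 6 libraries were counted as separate samples. No source says that they are separate cultures, so p-values reflect only how these samples vary, which may be technical.

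Named genes were the tested members within 50 kb, up to 3 per role group with the smallest adjusted p, and the 5 largest called changes per direction at a mean of at least 1 CPM. ZNF7, MAF1, BOP1, GPAA1, IQANK1, SHARPIN, ZNF251 and EXOSC4 were named after their values were seen. The members, role groups and alternatives were chosen with earlier results of these data known. Alternatives were other scalings and filters, GPT left out, DESeq2 1.42.0, limma 3.58.1 voom, the replicate number as a block, a smooth correction for transcript length and GC content (mgcv 1.9.3, with values for 98.9% of tested genes), each library left out, and other windows and distances. The tests were also run on simulated data with 200 changed genes. A simulated trend with GC content was the same in all GPT1 libraries, unlike the trends of opposite sign in these data. That check therefore does not cover such trends. Sequences of the region are not printed here.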

Additional observations from a re-analysis of the deposited data

How the results depend on the processing

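Scalings, leaving out GPT, limma voom and the replicate block kept the counts of neighbours higher (8) and lower (6) within 1.5 times. With a mean of at least 5 CPM, 2 of 47 were lower (14.4% of all genes), and the correlations with distance were 0.168 (log2 fold change) and 0.125 (absolute). The length and GC correction gave 20 higher, where 19.9% of all genes were higher. It gave 5 calls within 50 kb in place of 1, where 34.7% of all genes were called, and an absolute correlation of 0.187. Together with the replicate block it gave 16 higher (16.7% of all genes), 4 calls within 50 kb (29.8% of all genes) and 0.184. Without control replicate 3 and GPT1 replicate 2, chosen after seeing the data, 15 were higher (14.0% of all genes). In that fit 4 within 50 kb were called (31.5% of all genes). With every gene of at least 1 count, 2 were called within 50 kb (17.1% of the 31515 genes then tested). DESeq2 also called 2 there (25.5% of all genes). Within 250 kb of GPT (22 tested), 2 were higher and 0 lower by edgeR, against 10.5% and 14.6% of all tested genes. By DESeq2 and by limma voom 0 were lower, against 14.9% and 14.3%. At an unadjusted p under 0.05 (edgeR) 1 was lower, and the share of all genes under that rule was not counted. The correlations with distance within 250 kb were -0.155 and -0.138. Over the 17 members that overlap no gene these were 0.145 and 0.725. The cause of these differences was not tested. Leaving out 1 library in turn gave 1 to 12 higher (3.39% to 10.9% of all genes) and 2 to 7 lower (4.59% to 16.2%). It gave 1 to 2 calls within 50 kb (7.98% to 27.1% of all genes were called) and absolute correlations of 0.263 to 0.319.

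The replicate numbers showed no clear pairing: deviations of same-numbered libraries correlated at 0.14, -0.28 and -0.084. Control replicate 3 with GPT1 replicate 2 (0.39) and control replicate 2 with GPT1 replicate 1 (0.26) correlated more. Deviations are centred within each group and moved with GC content, so these values depend on each other and cannot settle whether the numbers pair. With the replicate block 12 neighbours passed, GFUS and MROH6 being lost, and 3886 of all genes.

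PPP1R16A, at 0.0046, changed sign with library totals only (-0.0080), ranged from -0.059 to 0.062 with 1 library left out (below 0 without control replicate 3, or without GPT1 replicate 1 at -0.037) and was below 0 without control replicate 3 and GPT1 replicate 2 (-0.067). ZNF623 changed sign with the correction (0.039, and 0.042 with the block). Of 605 values of 34 named genes, 520 kept direction and side of the threshold, 42 lost it, 37 gained it and 6 changed sign. Depth limits the genes below 1 CPM.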

Other observations

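Of 46 non-coding genes of the same window in the table, 9 were tested and 3 passed, all higher in the GPT1 libraries (33.3% of those tested, against 10.5% called higher among all tested genes). ENSG00000255182, a minus-strand processed transcript overlapping GPT and PPP1R16A, had 22.1, 15.2 and 21.7 CPM in the GPT1 libraries and 7.06, 7.71 and 6.33 CPM in the control libraries (log2 fold change 1.48 ± 0.16 SE, edgeR adjusted p = 0.000321). ENSG00000255224, an antisense RNA that overlaps EXOSC4 some 424 kb away, averaged 3.69 ± 0.670 CPM in the GPT1 libraries and 1.90 ± 0.279 CPM in the control libraries (0.95 ± 0.20 SE, adjusted p = 0.00861). ENSG00000265393, antisense to RECQL4 and 5.39 kb from GPT, averaged 1.17 ± 0.391 CPM in the GPT1 libraries and 0.590 ± 0.0880 CPM in the control libraries (1.0 ± 0.33 SE, adjusted p = 0.0469). It did not pass after the length and GC correction (0.75, edgeR adjusted p = 0.0900) or with the replicate block (edgeR adjusted p = 0.0501). Each overlaps a protein-coding gene on the other strand, and no source states whether counting used strand, so their reads and those of the partners cannot be told apart.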
